A study of Mus musculus with 12 samples.

Results

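The signalling genes of the NF-kB, TNF, IL1 and IL6 pathways were followed in liver RNA-seq of mice that overexpress the microRNA gene Mir483. They comprise 36 of the 55401 genes in the deposited count table, chosen by name from the known pathways with earlier results of these data known, and they were ordered into ligands with their antagonist, receptors, transducers, transcription factors, inhibitors and feedback genes, and induced outputs. The 12 libraries came from livers of C57BL/6J-background females aged 15 weeks, with 6 iTgMir483 mice and 6 littermates without the transgene (Control). iTgMir483 mice carry one added copy of Mir483 at Rosa26 under a Tet-off system, in which a transactivator made from the same locus drives Mir483 unless doxycycline is present. The transgene became active after a neomycin cassette was removed by CMV-Cre, which acts in all tissues from early development, and the cross paired transgenic males with dams homozygous for CMV-Cre. The sample names of both groups refer to this cross, so littermate controls from it would carry CMV-Cre as well. Doxycycline was given to the dams in drinking water throughout gestation and withdrawn at birth, a treatment that controls shared. Because the transgene is not restricted to the liver, effects that start in hepatocytes and effects that reach the liver from other tissues cannot be told apart.

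TNF and IL1 bind receptors whose adaptors and kinases activate the IkB kinases, which release NF-kB dimers from their IkB inhibitors. NF-kB then induces cytokines and adhesion molecules together with its own inhibitors, so that several feedback genes serve as transcript-level readouts of the pathway. A slower arm runs through Nfkb2 and Relb. IL6 signals instead through Il6ra and Il6st to Stat3, which in hepatocytes drives the acute-phase proteins and the feedback inhibitor Socs3. In liver, the macrophages (Kupffer cells) are a main source of TNF and IL1, and hepatocytes respond to IL6.

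The mature products of Mir483 are shown because their seeds, bases 2 to 8 in capitals, define the sites that could be searched in the 36 genes (RefSeq, GRCm38.p6; minus strand of chromosome 7).
miR-483-3p (chr7:142654932-142654952): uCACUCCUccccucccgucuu
miR-483-5p (chr7:142654968-142654989): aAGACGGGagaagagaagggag
The longest annotated 3′ UTR of 6 of the 36 genes (16.7%) held the 7-base match to the miR-483-3p seed, AGGAGTG, beside 12.6% of 12098 tested genes. These genes were Tnfrsf12a, Il6st, Ripk1, Stat3, Nfkbib and Socs3. The match to the miR-483-5p seed, CCCGTCT, was found in 0 of the 36 genes and in 3.26% of tested genes. Sites of the IL6 effector Stat3 and of its inhibitor Socs3 are printed with the match in capitals (GENCODE M21 transcripts, coordinates of the match).
Stat3 3′ UTR (chr11:100885771-100885777, minus strand): cactccagcccAGGAGTGtgctctttaag
Socs3 3′ UTR (chr11:117967021-117967027, minus strand): caacctaggtgAGGAGTGgtggctcctgg
Of these 6 genes, Socs3 was higher in iTgMir483 livers and the other 5 did not pass the test, with log2 fold changes between -0.02 and 0.46.

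Promoter motifs are shown because several of the 36 genes are known targets of NF-kB and of Stat3. A RefSeq promoter of 300 bases, from 250 bases before to 50 bases after the start, was given for 29 of the 36 genes (not for Tlr4, Cd14, Ikbkb, Nfkb1, Relb, Nfkbiz or Vcam1). The kappaB consensus, searched on both strands, was found in 8 of the 29 (27.6%), namely Bcl3, Il1r1, Nfkb2, Nfkbia, Nfkbie, Rel, Tlr2 and Tnfaip3, beside 6.19% of 10026 tested genes with a promoter and 4.51% of all 32851 promoters. The STAT motif TTCNNNGAA, a palindrome that reads alike on both strands, was found in 7 of the 29 (24.1%) and in 8.55% of tested genes. One match is printed for each of 6 genes with the consensus in capitals, 5′ to 3′ along the gene, with the coordinates of the capitals. The match of Nfkbia reads on the opposite strand, overlapping matches occur in Nfkb2, Rel and Tlr2, and a gene with several annotated starts has a window for each.
Nfkb2 (chr19:46304698-46304707, gene on the plus strand): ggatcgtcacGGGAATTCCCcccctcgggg
Tlr2 (chr3:83841771-83841780, gene on the minus strand): aggacacctgGGGAATTCCCacacggagcc
Nfkbie (chr17:45555594-45555603, gene on the plus strand): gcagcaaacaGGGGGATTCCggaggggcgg
Tnfaip3 (chr10:19015526-19015535, gene on the minus strand): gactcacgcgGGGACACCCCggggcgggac
Nfkbia (chr12:55492667-55492676, gene on the minus strand): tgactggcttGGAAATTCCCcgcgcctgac
Rel (chr11:23771052-23771061, gene on the minus strand): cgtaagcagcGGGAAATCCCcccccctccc
The STAT motif of Socs3 is printed in the same way.
Socs3 (chr11:117969512-117969520, gene on the minus strand): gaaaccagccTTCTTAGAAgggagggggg
The first 4 of these genes were higher in iTgMir483 livers, whereas Nfkbia and Rel did not pass the test, so the motif was present on both sides of the threshold. Among the 11 genes that changed, 10 had a promoter and 4 of them a kappaB match, and of the other 25 genes 19 had a promoter and 4 a match. The STAT motif was in 4 of the same 10 and 3 of the same 19. A match is a description of letters in this window and not a binding site.

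Control libraries held 12244123 to 30431286 counts and iTgMir483 libraries 12415140 to 15846175. Levels are given in CPM, which are counts scaled to a common library total with TMM (trimmed mean of M-values) factors. The 13205 genes that passed edgeR's filter on low counts were tested by its quasi-likelihood method. Changed, higher and lower mean a fold change over 1.5 with a p under 0.05 after Benjamini-Hochberg adjustment over all tested genes. As a check of the labels, Mir483 had 0 counts in every control and 318 to 761 counts in the iTgMir483 libraries. Such counts come from polyadenylated transcripts and not from the mature microRNAs. One library stood apart. iTgMir483 replicate 4 had the highest level in its group for 21 of the 35 tested signalling genes and for 8 of the 11 that changed, and values without it are given where they differ. The summed CPM of the 6 hepatocyte markers (Alb, Ttr, Apoa1, Apob, Tat and Hnf4a) was 119920 to 164237 in controls and 61357 to 131018 in iTgMir483 livers, with replicate 4 at the lowest value. iTgMir483 replicate 1 was nearly as low, at 63938. That liver had the lowest level in its group for 12 of the 35 tested signalling genes and for 6 of the 11 that changed.

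Of the 36 signalling genes, 35 could be tested. In all, 11 of the 35 tested genes were higher in iTgMir483 livers and 0 were lower, beside 8.41% of all tested genes higher and 2.73% lower. The 11 are the ligand Il1b, the receptors Tnfrsf1b and Tlr2, the kinase Ikbke, the NF-kB subunits Nfkb2 and Relb, the inhibitors Nfkbie, Tnfaip3 and Socs3, and the outputs Icam1 and Tnfaip2. At an unadjusted p under 0.05, edgeR gave 18 genes higher and 0 lower, beside 4412 of all 13205 tested genes in either direction. DESeq2 gave 11 higher and 0 lower at the thresholds used here. The median log2 fold change was 0.34 over the 35 genes and 0.01 over all tested genes. Above 0 were 29 of the 35, beside 6705 of all 13205 tested genes. In 5 genes (Tlr2, Myd88, Ikbke, Relb and Icam1) every iTgMir483 liver lay above every control liver, beside 5.09% of all tested genes, and 0 genes lay below throughout, beside 2.83% (7.92% of all tested genes in either direction). Of the 36 genes, 34 reached the level of the low-count filter in all 6 control libraries, Traf1 in 5 and Tnf in 0. Without iTgMir483 replicate 4, 8 genes were higher and 2 lower (Il1r1 and Il6ra), and the median was 0.29, with 26 of 35 genes above 0. Leaving out Control replicate 4 left 7 genes higher. Over all tested genes that fit gave 911 higher and 279 lower, against 1110 and 360 with all libraries. With any 1 library left out, 911 to 1235 of all genes were higher and 279 to 426 lower. Macrophage markers were higher in the same livers, with a summed CPM of 193 to 276 in controls and 307 to 863 in iTgMir483 livers, and their part in the changes was not tested.

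**Figure D1:**
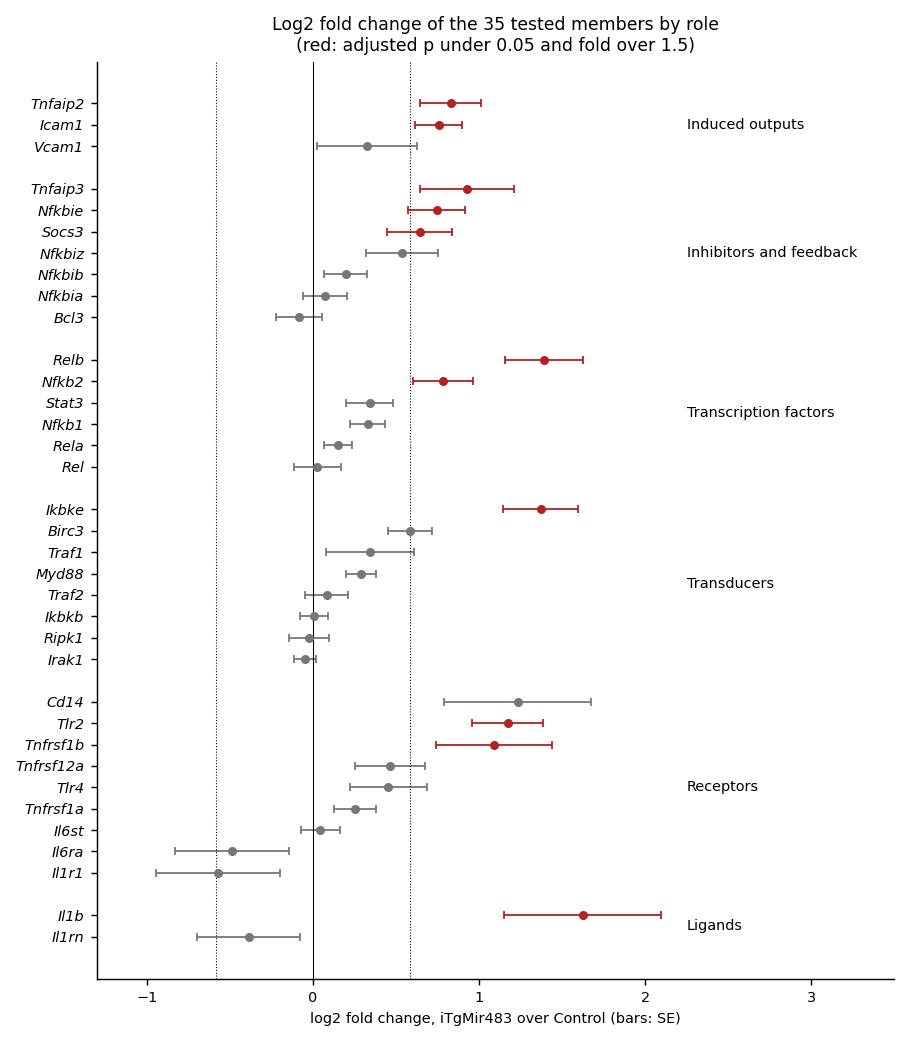
Log2 fold change of iTgMir483 over Control livers (horizontal axis) for the 35 tested genes in blocks by role, with bars for the SE, dotted lines at a fold change of 1.5 and red for genes past both thresholds. The red genes lie in all 6 blocks, and Il1r1 and Il6ra lie farthest to the left.

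The ligands differed among themselves. Il1b, the precursor of the cytokine IL1 beta made by activated myeloid cells (ENSMUSG00000027398, chr2:129364570-129371139), ranged from 1.03 to 4.18 CPM in the controls (median 1.87), against 1.94 to 16.6 CPM in the iTgMir483 livers (median 5.21). The groups overlapped, and 4 of 6 iTgMir483 livers lay above every control. For Il1b, the log2 fold change was 1.62 (SE 0.47, edgeR adjusted p = 0.0277), the largest among the 35 genes. iTgMir483 replicate 2 held the highest value, and without it the log2 fold change was 1.05 (adjusted p = 0.0614, edgeR). The call was also lost without Control replicate 2, 4 or 5 (adjusted p = 0.0585, 0.0672 and 0.0608, edgeR). Il1rn, the secreted antagonist that blocks the IL1 receptor, did not pass the test at -0.39 ± 0.31 (SE). It was within the control range in all 6 iTgMir483 livers.

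Tnf itself (ENSMUSG00000024401, chr17:35199381-35202007) was close to the limit of detection. Its counts summed to 23 in the 6 controls and 34 in the 6 iTgMir483 livers, no library exceeded 11 counts, and 1 control had 0. Tnf ranged from 0 to 0.633 CPM in the controls (median 0.108), against 0.155 to 0.582 CPM in the iTgMir483 livers (median 0.398). All 6 iTgMir483 livers lay within the control range. The mean difference was 0.148 CPM (two-sided exact permutation test over all assignments of mice, p = 0.266), so no difference in Tnf transcript was detectable at this depth. Il6 was under the filter as well, with at most 2 counts in any library, and the IL1 family ligand Il1a did not pass at 0.80 (SE 0.37, edgeR adjusted p = 0.141) on the log2 scale.

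**Figure D2:**
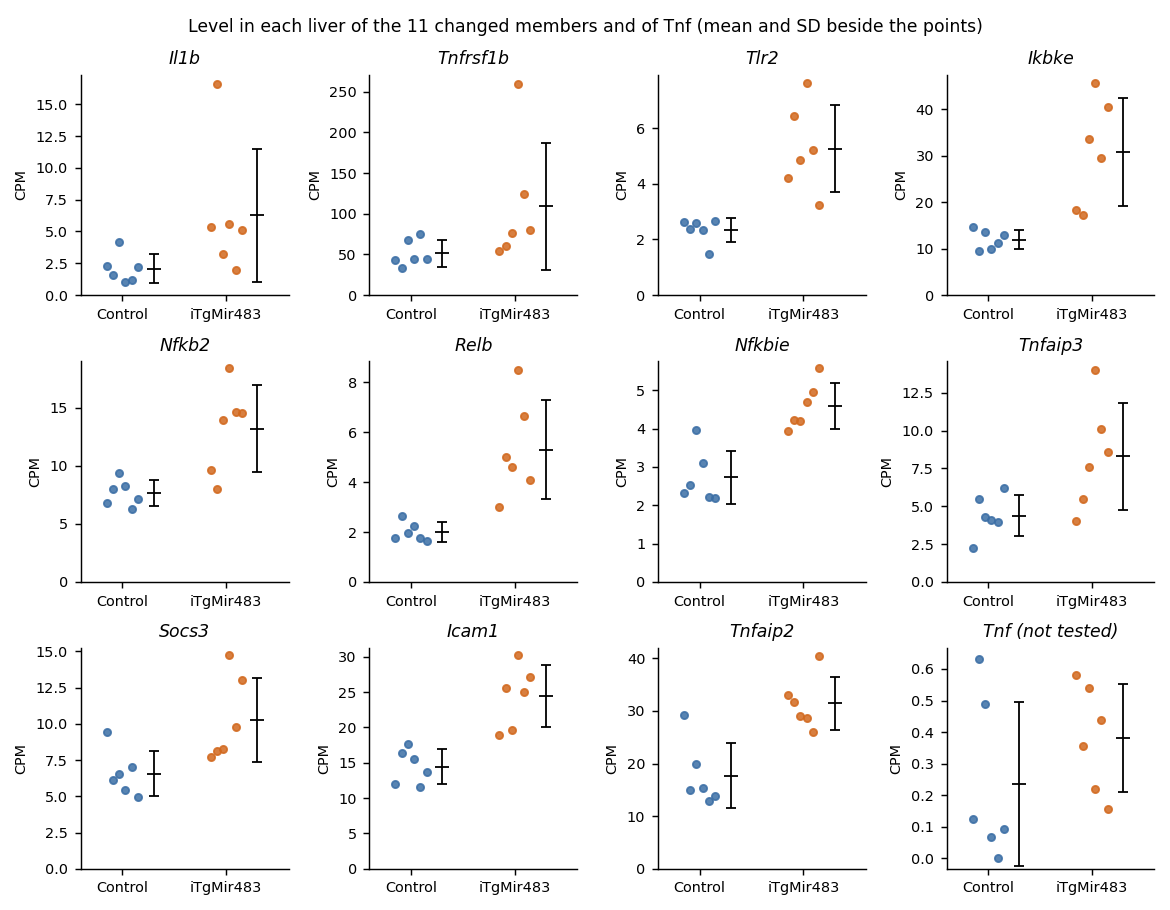
Level in CPM (vertical axes, linear) of each of the 11 changed genes and of Tnf in each liver, controls in blue and iTgMir483 in orange, with the mean and SD beside the points. The groups do not overlap for Tlr2, Ikbke, Relb and Icam1, single high livers stand above the rest for Il1b and Tnfrsf1b, and Tnf overlaps.

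Among the 9 receptors, 2 were higher, beside 8.41% of all tested genes. Tlr2, a sensor of bacterial lipoproteins (ENSMUSG00000027995, chr3:83836272-83841767), ranged from 1.47 to 2.65 CPM in the controls (median 2.47), against 3.25 to 7.62 CPM in the iTgMir483 livers (median 5.03). All 6 iTgMir483 livers lay above all 6 controls. The log2 fold change was 1.17 (SE 0.21, edgeR adjusted p = 0.00251), and the call held in every alternative other than a test against a fold change of 1.5. Tnfrsf1b, the TNF receptor found mainly on immune and endothelial cells (ENSMUSG00000028599, chr4:145213463-145246870), ranged from 33.8 to 74.6 CPM in the controls (median 43.8), against 54.1 to 259.7 CPM in the iTgMir483 livers (median 78). The iTgMir483 median lay above every control, although the 2 lowest iTgMir483 livers fell within the control range. For Tnfrsf1b, the log2 fold change was 1.09 (SE 0.35, edgeR adjusted p = 0.0424). Replicate 4 held the highest value, and without it the log2 fold change was 0.62 (adjusted p = 0.0839, edgeR). The call was lost as well without Control replicate 1, 2, 4 or 6 or iTgMir483 replicate 5, with adjusted p between 0.0652 and 0.0866 (edgeR).

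Tnfrsf1a, the TNF receptor that nearly all cells carry, was the most abundant of the 36 genes per exon length in both groups (32.2 and 38.3 mean CPM per kilobase), and its log2 fold change of 0.25 (SE 0.13, edgeR adjusted p = 0.175) did not pass. Tnfrsf1b stood in place 7 of that order in controls and in place 3 in iTgMir483 livers. Whether the 2 TNF receptors differed in their change was not tested. Tnfrsf12a, the receptor of the TNF family ligand TWEAK, had a log2 fold change of 0.46 (SE 0.21, edgeR adjusted p = 0.137).

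Tlr4 and its co-receptor Cd14, which together sense bacterial lipopolysaccharide, had log2 fold changes of 0.45 ± 0.23 and 1.23 ± 0.44 (SE). Neither passed (edgeR adjusted p = 0.19 and 0.0674). The call of Cd14 turned with single livers. It passed without Control replicate 3 or iTgMir483 replicate 1 or 3 (edgeR adjusted p = 0.0385, 0.0244 and 0.0472), and was at 0.74 (adjusted p = 0.182) without iTgMir483 replicate 4.

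Il6ra and Il1r1 had log2 fold changes below 0 and did not pass with all libraries. Il6ra, the chain that binds IL6 and is abundant in hepatocytes, ranged from 75.5 to 188 CPM in the controls (median 124), against 39.7 to 199 CPM in the iTgMir483 livers (median 75.3). In 5 of 6 iTgMir483 livers it lay below the control median, and replicate 4, at 199 CPM, was above every control. The log2 fold change was -0.49 (SE 0.34, edgeR adjusted p = 0.342). Without replicate 4 it was -0.89 with an adjusted p of 0.0372 (edgeR), which passed. Il1r1, the signalling receptor of IL1, showed the same single liver, with 90.6 CPM in replicate 4 and 21.2 to 32.5 CPM in the other 5, beside 33.1 to 119 CPM in controls. For Il1r1, the log2 fold change was -0.57 (SE 0.37, edgeR adjusted p = 0.304) with all libraries and -1.04 (adjusted p = 0.0239) without replicate 4 (edgeR). Il6st, the signal-transducing chain shared by IL6-type cytokines, was at 0.04 ± 0.12 (SE).

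Transducers changed in 1 of 8 cases, a share near the 11.1% of all tested genes that changed. Ikbke, an IkB kinase-related enzyme that NF-kB itself induces (ENSMUSG00000042349, chr1:131254343-131279606), ranged from 9.38 to 14.6 CPM in the controls (median 12.1), against 17.1 to 45.6 CPM in the iTgMir483 livers (median 31.6). The groups did not overlap. For Ikbke, the log2 fold change was 1.37 (SE 0.23, edgeR adjusted p = 0.00152). When edgeR tested for a change beyond 1.5-fold and not beyond 0, Ikbke and Relb were the 2 of the 36 genes called. Ikbkb, the catalytic kinase that marks IkB proteins for destruction, was at 0.01 ± 0.08 (SE), and below 0 with RLE size factors, with DESeq2 and with no filter on low counts. The kinases Irak1 and Ripk1, which act at the IL1 and TNF receptors, were at -0.05 ± 0.07 and -0.02 ± 0.12 (SE). The adaptors Traf1 and Traf2 were at 0.35 ± 0.26 and 0.08 ± 0.13 (SE). None of these 5 passed.

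Myd88 and Birc3 passed the adjusted p and not the fold threshold. Myd88, the adaptor of IL1 and Toll-like receptors, was at 0.29 ± 0.09 (SE; edgeR adjusted p = 0.0389), with 18.1 to 23.2 CPM in controls and 23.8 to 29.8 CPM in iTgMir483 livers. These ranges did not overlap. Birc3, a ubiquitin ligase of TNF receptor complexes and an NF-kB target, was at 0.58 ± 0.13 (SE; edgeR adjusted p = 0.00852), just under the fold threshold of 1.5. It crossed that threshold without Control replicate 1 or iTgMir483 replicate 2, 3, 5 or 6, with log2 fold changes of 0.59 to 0.66.

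Of the 6 transcription factors, the 2 of the slower NF-kB arm were higher, beside 8.41% of all tested genes. Relb, the partner of the processed Nfkb2 product (ENSMUSG00000002983, chr7:19606217-19629438), ranged from 1.65 to 2.65 CPM in the controls (median 1.85), against 2.98 to 8.5 CPM in the iTgMir483 livers (median 4.81). The groups did not overlap. For Relb, the log2 fold change was 1.39 (SE 0.24, edgeR adjusted p = 0.00174). Nfkb2 (ENSMUSG00000025225, chr19:46304320-46312385) ranged from 6.29 to 9.41 CPM in the controls (median 7.56), against 7.99 to 18.4 CPM in the iTgMir483 livers (median 14.2). Replicate 2 was the only iTgMir483 liver inside the control range. For Nfkb2, the log2 fold change was 0.78 (SE 0.18, edgeR adjusted p = 0.00914).

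No subunit of the classical arm was past both thresholds. Nfkb1, the precursor of the classical DNA-binding subunit, ranged from 26.3 to 32.9 CPM in the controls (median 28.9), against 27.9 to 41.9 CPM in the iTgMir483 livers (median 37.5). In 5 of 6 iTgMir483 livers it lay above every control. The log2 fold change of 0.33 (SE 0.10, edgeR adjusted p = 0.0411) passed the adjusted p and not the fold threshold. Rela, the main transactivating subunit, ranged from 37.3 to 45.8 CPM in the controls (median 40.8), against 39.3 to 50.9 CPM in the iTgMir483 livers (median 46.3). For Rela, the log2 fold change was 0.15 (SE 0.08, edgeR adjusted p = 0.235), and the groups overlapped. Rel, a subunit used mostly in blood cells, was at 0.03 ± 0.14 (SE). NF-kB activity is set by nuclear entry, which transcript levels do not measure.

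Stat3, the factor that IL6 activates (ENSMUSG00000004040, chr11:100885098-100939540), ranged from 97.1 to 131 CPM in the controls (median 118), against 104 to 217 CPM in the iTgMir483 livers (median 143). In 5 of 6 iTgMir483 livers it lay above every control, and replicate 4 was the highest. For Stat3, a log2 fold change of 0.34 (SE 0.14, edgeR adjusted p = 0.109) did not pass, and it was 0.20 (adjusted p = 0.215) without replicate 4.

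**Figure D3:**
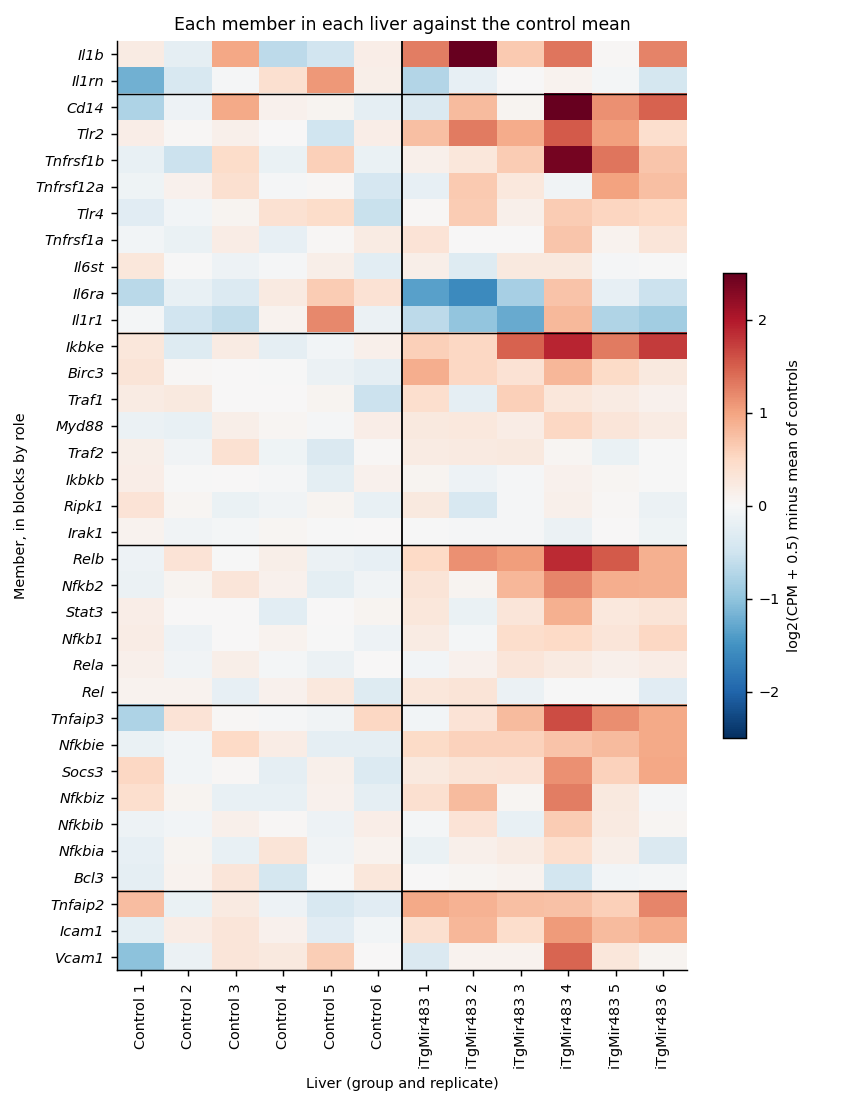
Each tested gene (lines, in blocks by role) in each liver (columns) as log2(CPM + 0.5) minus the mean of the controls, red above and blue below. iTgMir483 replicate 4 is the darkest red for Tnfrsf1b and Relb and the only red iTgMir483 liver for Il1r1 and Il6ra.

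Feedback genes were higher in 3 of 7 cases, beside 8.41% of all tested genes. Nfkbie, the IkB epsilon inhibitor (ENSMUSG00000023947, chr17:45555703-45563169), ranged from 2.19 to 3.97 CPM in the controls (median 2.43), against 3.93 to 5.57 CPM in the iTgMir483 livers (median 4.45). Of the 6 iTgMir483 livers, 5 lay above every control. The log2 fold change was 0.74 (SE 0.17, edgeR adjusted p = 0.00919). Tnfaip3, the ubiquitin-editing enzyme that ends TNF signalling (ENSMUSG00000019850, chr10:19000910-19015657), ranged from 2.26 to 6.22 CPM in the controls (median 4.21), against 4 to 14 CPM in the iTgMir483 livers (median 8.1). In 4 of 6 iTgMir483 livers it lay above every control. For Tnfaip3, the log2 fold change was 0.93 (SE 0.28, edgeR adjusted p = 0.0346). Without replicate 4 it was 0.72 (adjusted p = 0.0718, edgeR). Leaving out any of Control replicates 1, 3, 4 and 5 or iTgMir483 replicates 3, 5 and 6 also ended the call, at adjusted p of 0.0518 to 0.0697 (edgeR).

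Socs3, which switches off IL6 receptor signalling and is itself induced by Stat3 (ENSMUSG00000053113, chr11:117966079-117970047), ranged from 4.94 to 9.41 CPM in the controls (median 6.32), against 7.72 to 14.7 CPM in the iTgMir483 livers (median 9.03). The groups overlapped, with 3 iTgMir483 livers above every control. For Socs3, the log2 fold change was 0.64 (SE 0.19, edgeR adjusted p = 0.0338). Without replicate 4 it was 0.51 (adjusted p = 0.0704, edgeR), and the call was also lost without Control replicate 2, 3, 4, 5 or 6 or iTgMir483 replicate 6, at adjusted p of 0.0517 to 0.0792 (edgeR).

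Nfkbia, the main cytoplasmic IkB and one of the fastest NF-kB targets, was at 0.07 ± 0.13 (SE), and stood in place 2 per exon length in both groups (30.1 and 31.7 mean CPM per kilobase). Nfkbib, another IkB, was at 0.20 ± 0.13 (SE). The nuclear IkB family members Nfkbiz and Bcl3, which steer NF-kB at its promoters, were at 0.54 ± 0.22 and -0.08 ± 0.14 (SE). None of these 4 passed, with edgeR adjusted p from 0.0992 for Nfkbiz to 0.735 for Nfkbia. Whether Nfkbie and Nfkbia differed in their change was not tested.

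Outputs were higher in 2 of 3 cases, beside 8.41% of all tested genes. Icam1, an adhesion molecule that binds leukocyte integrins (ENSMUSG00000037405, chr9:21015985-21028817), ranged from 11.6 to 17.6 CPM in the controls (median 14.6), against 18.9 to 30.3 CPM in the iTgMir483 livers (median 25.3). The groups did not overlap. For Icam1, the log2 fold change was 0.76 (SE 0.14, edgeR adjusted p = 0.00281). Tnfaip2, a gene first known for its induction by TNF (ENSMUSG00000021281, chr12:111442469-111455018), ranged from 12.8 to 29.2 CPM in the controls (median 15.2), against 25.9 to 40.5 CPM in the iTgMir483 livers (median 30.4). The groups overlapped only through Control replicate 1, at 29.2 CPM. For Tnfaip2, the log2 fold change was 0.83 (SE 0.18, edgeR adjusted p = 0.00736). Vcam1, another adhesion molecule of activated endothelium, was at 0.32 ± 0.30 (SE), and at -0.03 without replicate 4. Annotated exons of genes on the opposite strand covered 11.7% of the exon bases of Icam1, 11.6% of those of Nfkb2, 11.3% of those of Myd88 and 6.3% of those of Tnfaip2, and the strand setting of the counting was not given in the sources used here.

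The other genes of the pathways formed a list of 71 that holds none of the 36. Of its 60 tested genes, 10 were higher and 1 was lower, beside 8.41% and 2.73% of all tested genes, and the median log2 fold change was 0.11. The largest increases were in Irak3, an inhibitor of IL1 and Toll-like receptor signalling (1.81 ± 0.52), the receptors Tlr9 for microbial DNA (1.79 ± 0.38) and Tlr1, the partner of Tlr2 (1.20 ± 0.33), the IL6-family ligand Clcf1 (1.52 ± 0.25) and the STAT-induced inhibitor Cish (1.07 ± 0.31, all SE). Of these, Irak3 lost its call without Control replicate 5 and was at 1.02 without iTgMir483 replicate 4, and Cish lost its call without Control replicate 4 or 6 or iTgMir483 replicate 6. Il1rap, the accessory chain that Il1r1 needs for signalling, ranged from 101 to 171 CPM in the controls (median 109), against 62.3 to 96.8 CPM in the iTgMir483 livers (median 76.4). It lay lower in every iTgMir483 liver than in any control, at -0.61 (SE 0.14, edgeR adjusted p = 0.00863), and its fold change was under 1.5 without Control replicate 1 or iTgMir483 replicate 2 or 6.

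Over all tested genes, 8.41% were higher and 2.73% lower. By role, 5 of 12 tested feedback genes of this list and 2 of 6 ligands were higher. Of 17 receptors, 3 were higher and 1 lower, and of 25 transducers 0 passed in either direction. The remaining higher genes were the feedback genes Tnip1, Tnip2 and Tnfaip8l2, the receptor Tnfrsf21 and the ligand Tnfsf12, which shares 48.2% of its exon bases with an annotated gene on the same strand and is therefore uncertain. Tnfrsf21 kept its call in 2 of the 12 fits that left out 1 library and was at 0.41 (edgeR adjusted p = 0.08) without iTgMir483 replicate 4. Tnfaip8l2 lost its call without Control replicate 4, and the fold change of Tnip2 was under 1.5 without Control replicate 6. Of the 25 transducers, 6 had an unadjusted p under 0.05, a smaller share than the 4412 of all 13205 tested genes. The kinase subunits Chuk and Ikbkg and the ubiquitin ligase Traf6 were at -0.44 ± 0.12, -0.05 ± 0.12 and -0.11 ± 0.09 (SE). Chuk passed the adjusted p (edgeR, 0.0227) and not the fold threshold.

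**Figure D4:**
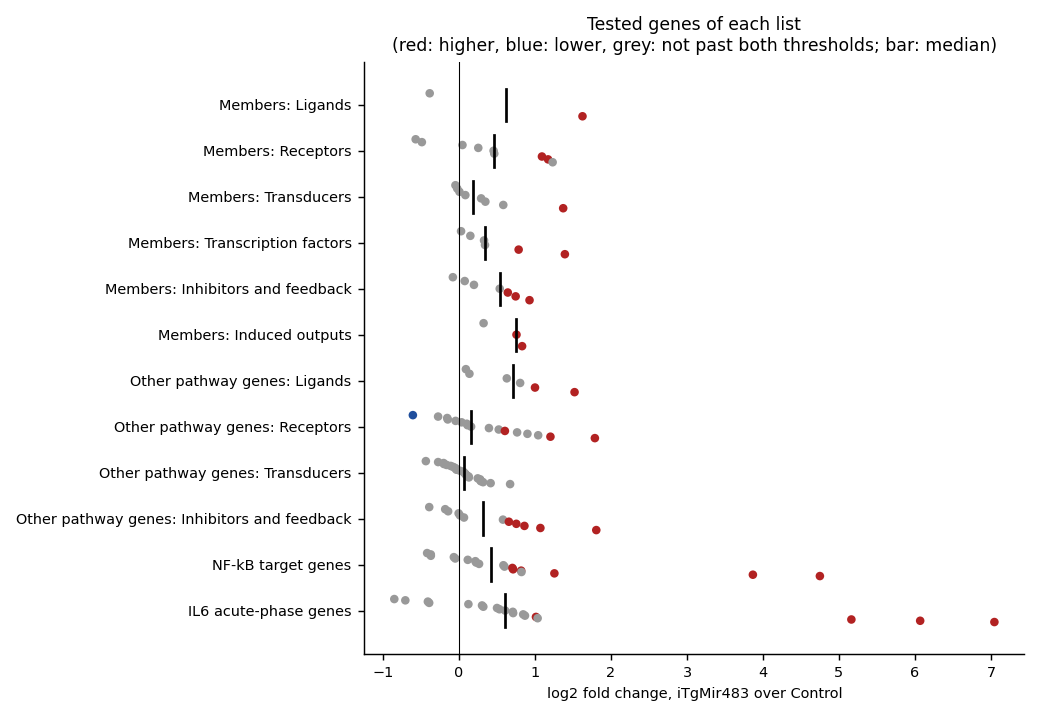
Log2 fold change of iTgMir483 over Control livers (horizontal axis) for each tested gene of the 36 by role and of the other lists, with red for higher, blue for lower, grey for genes not past both thresholds and a bar at each median. No transducer outside the 36 is red or blue, and the largest increases lie among the NF-kB targets and the IL6 acute-phase genes.

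Of 18 tested known NF-kB targets outside the 36, 6 were higher and 0 lower (edgeR), beside 8.41% and 2.73% of all tested genes. DESeq2 also gave 6 higher and 0 lower, and the median log2 fold change was 0.42. At an unadjusted p under 0.05, 8 were higher and 2 lower (Sod2 and Xiap), beside 4412 of all 13205 tested genes in either direction. Sod2 and Xiap passed the adjusted p (edgeR, 0.00876 and 0.0364) and not the fold threshold. Sod2 ranged from 163 to 189 CPM in the controls, against 122 to 155 CPM in the iTgMir483 livers, without overlap. Cxcl1, a neutrophil-attracting chemokine, ranged from 0.139 to 1.44 CPM in the controls (median 0.722), against 6.7 to 37.7 CPM in the iTgMir483 livers (median 18.7). The groups were far apart, at 4.75 (SE 0.46, edgeR adjusted p = 3.06e-05), and the call held without any 1 library. Lcn2, an iron-binding acute-phase protein of hepatocytes and neutrophils, was at 3.87 ± 0.90 (SE) with 694 CPM in replicate 4 and at most 146 in the other iTgMir483 livers, and at 2.34 without replicate 4. Ier3, Selp and Plau, an early response gene, an endothelial adhesion molecule and a plasminogen activator, were at 1.25 ± 0.31, 0.82 ± 0.20 and 0.71 ± 0.23 (SE), and the call of Plau was lost without any of 8 single libraries. The sixth was Csf1, a macrophage growth factor, at 0.70 ± 0.15 (SE), whose fold change was under 1.5 without iTgMir483 replicate 4.

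Of 19 tested IL6-responsive acute-phase genes, edgeR gave 9 higher and 2 lower (Apcs and Hamp) at an unadjusted p under 0.05. Of all 13205 tested genes, 4412 had such a p in either direction. The median log2 fold change of the 19 genes was 0.61. At the thresholds used here, 4 of the 19 were higher and 0 lower with edgeR, beside 8.41% and 2.73% of all tested genes. The count turned on the method, with 7 higher and 2 lower by DESeq2, 1 higher and 2 lower by limma-voom, 2 higher and 1 lower with the replicate block, and 1 higher and 0 lower in the test against 1.5-fold. Saa2, Saa1 and Orm2, secreted proteins of the acute phase, had log2 fold changes of 7.04 ± 1.64, 6.07 ± 1.54 and 5.16 ± 1.31 (SE), and of 5.98, 5.02 and 3.51 without iTgMir483 replicate 4. These genes have close paralogs, so the counting could split their reads. The livers were unequal. Saa1 ranged from 12.1 to 57 CPM in the controls (median 14.1), against 7.86 to 5166 CPM in the iTgMir483 livers (median 37.5), and only 2 iTgMir483 livers lay above every control. Fgb, the beta chain of fibrinogen, ranged from 3088 to 4766 CPM in the controls (median 3814), against 5428 to 14495 CPM in the iTgMir483 livers (median 6320.2). All 6 iTgMir483 livers lay above all controls, at 1.01 (SE 0.23, edgeR adjusted p = 0.00878). Without replicate 4, Fgb was at 0.74, the 4 genes were still higher, and 3 others were lower (Apcs, Itih3 and Cebpb, named after their values were seen).

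Most tested markers of myeloid cells were higher in the iTgMir483 livers. The summed CPM of 5 Kupffer cell markers was 209.6 to 316 in controls and 318 to 923 in iTgMir483 livers, that of 6 macrophage markers 193 to 276 and 307 to 863, and that of 6 neutrophil markers 3.26 to 5.86 and 6.96 to 26.7. For markers of recruited monocytes or macrophages the sums were 18 to 40.8 and 58.7 to 83.9. Most of that sum was Spp1, which many cell types make and which ranged from 16.2 to 38 CPM in the controls (median 23), against 52 to 77.1 CPM in the iTgMir483 livers (median 61.2), whereas Ccr2, the chemokine receptor of recruited monocytes, was at -0.59 ± 0.24 (SE), with an unadjusted p under 0.05 and an edgeR adjusted p of 0.108. Replicate 4 had the highest sum of Kupffer cell, macrophage and neutrophil markers, and the highest values without it were 532, 479.9 and 23.3. Beside 8.41% of all tested genes, 4 of 5 Kupffer cell, 6 of 6 macrophage, 3 of 4 recruited and 3 of 3 neutrophil markers tested were higher. Itgam, 1 of the 3 recruited markers, shares 68.7% of its exon bases with an annotated gene on the same strand.

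Among the other cell types, 2 bile duct markers changed, and so did Cd4, the only T cell marker that could be tested. Sums for endothelium were 211 to 234 in controls and 187 to 299 in iTgMir483 livers. With edgeR, 0 of 5 endothelial, 0 of 6 stellate cell and 0 of 6 hepatocyte markers changed, beside 11.1% of all tested genes. At an unadjusted p under 0.05, 2, 1 and 0 of them were higher, and 1 hepatocyte marker, Hnf4a, was lower. Of all 13205 tested genes, 4412 had such a p in either direction. Bile duct markers were higher in 2 of 4 cases (Krt7 and Epcam). For lymphocytes, 1 of 1 T cell marker (Cd4) and 0 of 3 B cell markers changed, and 0 of 1 dendritic cell marker changed. The other T cell markers (Cd3e, Cd3d, Cd3g and Cd8a) were under the filter. The sum of all 5 T cell markers overlapped, at 2.34 to 3.39 CPM in controls and 2.17 to 4.03 CPM in iTgMir483 livers. Also under the filter were Ms4a1, Flt3, Xcr1, the 3 NK cell markers and 3 of the 6 neutrophil markers (Ly6g, Retnlg and Mpo). No marker was at 0 in all 12 libraries. The part of these cell types in the changes of Il1b, Tlr2, Tnfrsf1b and the other signalling genes was not tested, and in bulk tissue more cells of a type and more RNA per cell cannot be told apart.

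**Figure D5:**
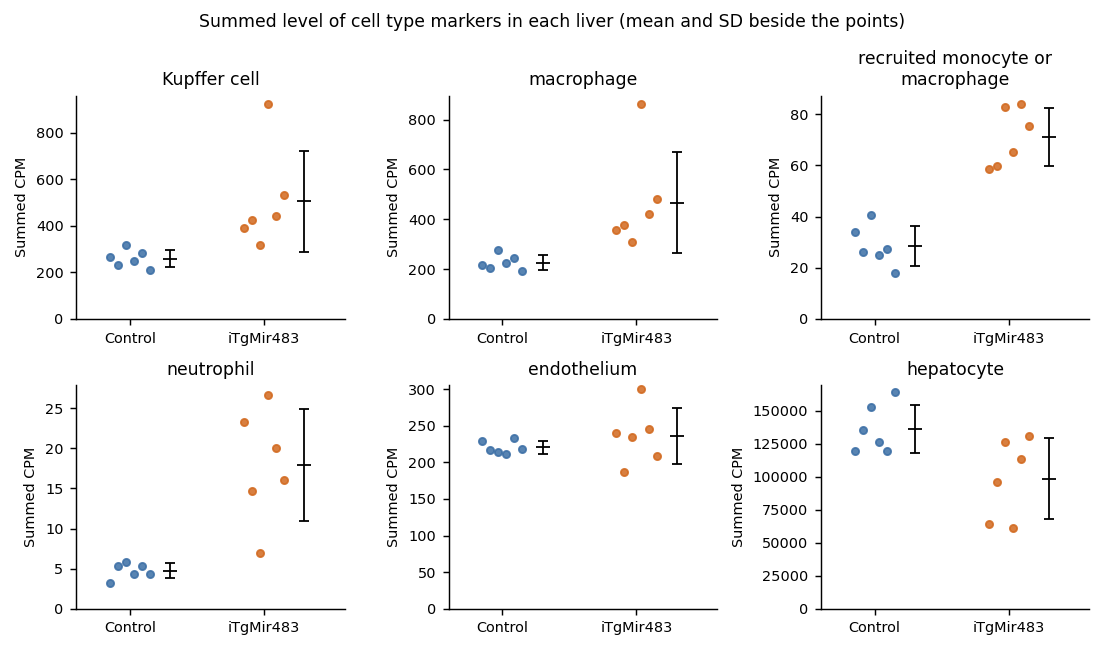
Summed CPM (vertical axes, linear, from 0) of the markers of 6 cell types in each liver, controls in blue and iTgMir483 in orange, with the mean and SD beside the points. All iTgMir483 livers lie above all controls for the 4 myeloid lists, and the groups overlap for endothelium and hepatocytes.

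By level per exon length, the order of the 36 genes was led in controls by Tnfrsf1a, Nfkbia and Irak1 (32.2, 30.1 and 17.3 mean CPM per kilobase), and ended with Tlr4, Tnf and Traf1 (0.319, 0.143 and 0.0871). The changed genes sat mostly in the lower part of this order. In controls, 8 of the 11 stood in places 22 to 33, with Tnfrsf1b in place 7, Tnfaip2 in place 15 and Icam1 in place 17. Il1b stood in place 29 in controls and 23 in iTgMir483 livers, and Ikbke in places 27 and 22.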

How the data were processed

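Liver RNA of 12 mice was measured by RNA-seq. The authors made stranded poly(A) libraries, aligned paired reads to GRCm38 with STAR and deposited raw counts per gene, and the strand column used was not given in the sources used here. The titles gave groups and replicate numbers, and a single pool was named for all libraries, so no batch term was used. The table held 55401 genes, 0 rows without a gene and 0 columns of no sample. Symbols, positions and 3′ UTRs came from GENCODE M21 (GRCm38), and promoters and mature microRNAs from RefSeq (GRCm38.p6).

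Library totals ranged from 12244123 to 30431286 counts, which sets the precision of genes with low counts. The smallest chi-square per gene between libraries of a group was 14.3, so the libraries did not look like repeated sequencing of the same library. That value cannot show how many mice a library holds. Each library was taken as 1 replicate from 1 mouse because the paper gives 6 control and 6 iTgMir483 mice. In R 4.3.3 with limma 3.58.1 and edgeR 4.0.16, counts were filtered with filterByExpr (13205 genes kept), scaled by TMM and fitted by the quasi-likelihood method with group as the only term. A changed gene had a Benjamini-Hochberg adjusted p under 0.05 over all tested genes and a fold change over 1.5. The SE was taken as the absolute log2 fold change over the root of the F statistic. Tnf, which the filter removed, was tested by a two-sided exact permutation test on CPM over all assignments of mice, which can go no lower than p = 0.00216. Level per exon length is mean CPM per kilobase of annotated exon.

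On data simulated for this comparison over 13057 genes, edgeR recovered 60% of genes changed by a log2 fold of 0.78, 81.5% at 1 and 100% at 2, with 13 false calls. The simulation drew each gene independently, without a liver that stood apart across genes as iTgMir483 replicate 4 did. Recovery and false calls in the real libraries can therefore differ from these values.

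The 36 genes and the lists of other pathway genes, NF-kB targets, IL6 acute-phase genes and cell type markers were chosen with earlier results of these data known. All 36 are named, with values per group for changed genes and for Tnf, Il1b, Nfkb1, Rela, Stat3 and Il6ra. Of the other lists, changed genes are named, at most the 5 largest per list and direction, together with Il6, Il1a, Chuk, Ikbkg and Traf6, and further names were added after their values were seen. Alternatives were RLE size factors, no filter, at least 10 counts in every library, DESeq2 1.42.0, limma-voom, the adjusted p alone, a test against a fold change of 1.5, a replicate block and leaving out each library. A fit without replicate 1 of both groups was added after the data were seen.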

Additional observations from a re-analysis of the deposited data

Results flagged for a closer look

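For each of the 36 genes in each group, 72 in all, a liver far from the other 5 was sought, and 11 were found. A chance count of 3.6 would assume independent genes. The 36 genes were measured in the same livers, so the counts cannot be compared as a test. Each gap is given as a share of the range of its group, with a limit of 0.625 for 6 livers.

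Of these 11, 6 were in iTgMir483 replicate 4. In that liver Tnfrsf1b was at 259.7 CPM, with the others at 54.1 to 125 (gap 0.657), Il1r1 at 90.6 with the others at 21.2 to 32.5 (0.837), and Vcam1 at 63.6 with the others at 17.6 to 28.0 (0.774). Myd88 was at 29.8 CPM with the others at 23.8 to 25.8 (0.660), Stat3 at 217 with the others at 104 to 146 (0.628), and Bcl3 was low at 13.5 with the others at 17.8 to 19.9 (0.670). The same liver had the highest summed CPM of Kupffer cell, macrophage and neutrophil markers in its group. Its sum of hepatocyte markers was the lowest (61357), with replicate 1 close to it (63938). The part of these cells in its values was not tested.

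Il1b stood apart in iTgMir483 replicate 2, at 16.6 CPM with the others at 1.94 to 5.57 (gap 0.752). Among controls, replicate 5 was high for Il1r1, at 119 CPM with the others at 33.1 to 54.3 (0.752), and low for Tlr2, at 1.47 with the others at 2.33 to 2.65 (0.723). Cd14 was high in Control replicate 3, at 7.81 CPM with the others at 2.01 to 4.14 (0.633), and Traf1 was low in Control replicate 6, at 0.366 CPM with the others at 0.752 to 0.978 (0.632).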

How the results depend on the processing

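Of the 11 changed genes, Tlr2, Ikbke, Nfkb2, Relb, Nfkbie, Icam1 and Tnfaip2 kept their calls under every alternative other than the test against a fold change of 1.5, which left 2 (Ikbke and Relb). RLE size factors, no filter and DESeq2 gave the same 11 genes, limma-voom lost Tnfrsf1b, a minimum of 10 counts in every library added Birc3, and the fit without replicate 1 of both groups, chosen after seeing the data, added Cd14. Leaving out 1 library gave 7 to 12 of the 36 genes higher and 0 to 2 lower, 7 to 13 other pathway genes higher and 0 to 1 lower, 5 to 7 NF-kB targets higher, and 4 to 7 acute-phase genes higher and 0 to 3 lower. It gave 911 to 1235 of all genes higher and 279 to 426 lower.

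The test against a fold change of 1.5 also left 1 other pathway gene higher and 0 lower, 2 NF-kB targets and 1 acute-phase gene higher, and 167 genes higher and 59 lower in all. The adjusted p alone gave 3 other pathway genes, 2 NF-kB targets and 968 of all genes lower. DESeq2 gave 7 acute-phase genes higher and 2 lower, and limma-voom 1 higher and 2 lower. Without replicate 1 of both groups, 0 other pathway genes and 1 acute-phase gene were lower. The cause was not tested.

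The replicate numbers did not act as pairs, because the correlations of same-numbered libraries ranged from 0.0339 to 0.440. The labels name no litters, so litter was a term in no fit, and the replicate numbers need not follow it. Only 2 of 6 Control libraries correlated best with the iTgMir483 library of the same number. With the replicate block, 10 of the 36 genes were higher (Socs3 was lost, adjusted p = 0.0694 with edgeR) and 1 lower (Il6ra), and 2 acute-phase genes were higher and 1 lower.

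Of the log2 fold changes that turned their sign, none was called. Ikbkb was at -0.0061 with RLE size factors, -0.013 with no filter, -0.0057 with DESeq2, and -0.043 to 0.039 with 1 library left out. Rel was at -0.013 without replicate 1 of both groups and at -0.038 to 0.085 with 1 library left out, Ripk1 at -0.085 to 0.049 and Il6st at -0.0074 to 0.11. Without iTgMir483 replicate 4, Nfkbia was at -0.0018 and Vcam1 at -0.033, the lowest values with 1 library left out (highest 0.15 and 0.46). Depth limits what can be said of Tnf and Il6, whose counts were near 0.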
